A study of Mus musculus with 6 samples.

Results

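The 10 genes described here, Mest, Peg3, Peg10, Plagl1, Grb10, Igf2r, Impact, Nnat, Gnas and Inpp5f, are imprinted genes that lie scattered over the mouse genome and whose imprints are set in the germline. They were chosen by name, and every 2 kb tile of the deposited table that overlapped the bounds of a gene plus 5 kb on both sides was used. All 10 names were found among the 37310 genes of the annotation, and their windows held between 7 tiles (Nnat) and 60 tiles (Grb10), 296 tiles in all out of 1327469. H3K9me3, H3K9me2 and H3K27me3 had been measured in them by ChIP-seq, in which an antibody pulls down chromatin that carries the mark and the recovered DNA is sequenced. All cells were mouse embryonic stem cells (ESCs) that lacked Dicer, the nuclease that makes small regulatory RNAs, after constitutive knockout with CRISPR/Cas9. The group called Dicer KO kept Dnmt1, the enzyme that maintains DNA methylation through cell division. The group called Dicer KO/Dnmt1 cKO had in addition lost it through a Cre recombinase induced with tamoxifen. The comparison asks what happens to repressive chromatin at imprinted loci when maintenance of DNA methylation is lost in cells without Dicer.

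The labels name E14 as the strain of the cells, whereas the methods of the study derive the lines from C57BL/6 ESCs with loxP sites on both Dnmt1 alleles. The labels of these samples do not give the day after deletion. There was 1 library for each mark and genotype, so no difference has a replicate check and no test between genotypes was made. The tiles held 18155478 H3K9me3 reads in the Dicer KO and 18931477 upon Dnmt1 deletion. They held 16834940 and 20503709 H3K9me2 reads, and 27162045 and 21280804 H3K27me3 reads, in the same order. The level of a tile is its reads divided by the mean reads per tile of its library, so that 1 is the genome's mean. Changes are given on the log2 scale, with libraries scaled by their total reads, and are negative where the Dicer KO/Dnmt1 cKO was lower. The 95% interval of a change is an exact binomial (Clopper-Pearson) interval that covers counting error and nothing else, and it is too narrow where reads are copies from PCR.

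An imprinted gene is expressed from either its maternal or its paternal allele, and the difference goes back to a CpG-rich region that is methylated in the oocyte or in sperm and keeps this methylation in the embryo. At all of these genes the germline methylation comes from the oocyte. The zinc finger protein ZFP57 recognises the hexamer TGCCGC when its CpG is methylated and recruits KAP1 (TRIM28) with the methyltransferase SETDB1, which places H3K9me3 on the methylated allele. H3K27me3 is placed by the Polycomb complex PRC2, often on unmethylated CpG-rich DNA, and H3K9me2 by G9a (EHMT2) and GLP (EHMT1) over broad domains. ChIP-seq reads were not split by allele, so each level sums both parental copies.

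Each gene had a summit of H3K9me3, called the peak tile, which is the tile of the window with most H3K9me3 over both genotypes together. The 4 stretches of 200 bases shown here come from the peak tiles of Plagl1, Igf2r, Gnas and Inpp5f. They are the stretches outside annotated exons that hold most TGCCGC hexamers in those tiles, and they were picked for their number of hexamers. Stretches chosen in the same way at Mest, Peg3, Peg10, Grb10 and Nnat held between 0 and 2. No stretch is given for Impact. They are printed from the plus strand of NCBIM37, with TGCCGC and its reverse complement GCGGCA in capitals. The Plagl1 stretch (chr10:12810867-12811066) lies in an intron and holds 4 hexamers. The Igf2r stretch (chr17:12935055-12935254) holds 3 and lies within the bounds of both Igf2r and Airn. The Gnas stretch (chr2:174121278-174121477) lies in an intron of Gnas and holds 3, of which 2 overlap in 1 run of capitals. The Inpp5f stretch (chr7:135831403-135831602) is intronic and also holds 3.
Plagl1: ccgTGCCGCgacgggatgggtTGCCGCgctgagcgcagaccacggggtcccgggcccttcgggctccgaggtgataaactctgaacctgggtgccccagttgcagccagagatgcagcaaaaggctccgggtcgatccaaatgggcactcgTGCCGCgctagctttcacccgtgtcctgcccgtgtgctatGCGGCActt
Igf2r: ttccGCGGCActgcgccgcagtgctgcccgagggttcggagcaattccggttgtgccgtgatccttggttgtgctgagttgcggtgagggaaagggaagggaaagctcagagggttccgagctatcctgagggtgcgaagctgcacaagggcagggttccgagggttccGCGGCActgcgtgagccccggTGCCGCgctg
Gnas: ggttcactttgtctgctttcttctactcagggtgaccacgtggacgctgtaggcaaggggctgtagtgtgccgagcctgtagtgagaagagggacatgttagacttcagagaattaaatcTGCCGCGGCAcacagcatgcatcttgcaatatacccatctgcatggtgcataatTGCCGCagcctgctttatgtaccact
Inpp5f: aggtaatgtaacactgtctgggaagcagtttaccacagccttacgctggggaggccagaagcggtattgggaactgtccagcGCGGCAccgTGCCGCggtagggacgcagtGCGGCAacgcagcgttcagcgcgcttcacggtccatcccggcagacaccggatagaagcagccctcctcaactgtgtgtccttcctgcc

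The peak tiles were richer in CpG than most of the genome. They held between 51 and 112 CpGs with a median of 83, against a median of 14 over the 1278688 tiles of the genome with complete sequence. Their GC content had a median of 53.2%, against 41.4%. The hexamer TGCCGC, counted on both strands by its first base, occurred between 2 and 8 times in every one of the 10 peak tiles, whereas 10.9% of all tiles held it at least once and 1.51% at least 2 times. For the Peg3 tile this count was 2, whereas the count made for the stretches gave 1. Among the 2303 tiles with complete sequence at or above the lowest of these peaks in H3K9me3, the 10 included, 9.60% held it at least 2 times, and 17.7% of the 249 window tiles outside the runs held it at least once. At 6 of the 10 genes the peak tile was also the tile with most hexamers in its window. The Igf2r peak tile held 8, a number reached by 0.00297% of all tiles, and the Mest peak tile held 7. The hexamer itself contains a CpG, and none of these shares was taken over tiles as rich in CpG as the peak tiles. A match of letters does not show that a factor was bound.

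Most peaks stood at promoters, though often not at the first promoter of the gene. The peak tile held the annotated gene start at 4 genes: Peg10 (chr6:4696001-4698000), a gene derived from a retrotransposon that shares this promoter region with Sgce, Plagl1 (chr10:12810001-12812000), a zinc finger transcription factor, Nnat (chr2:157384001-157386000), a small membrane protein encoded inside an intron of Blcap, and Impact (chr18:13130001-13132000), a regulator of translation under stress. At 3 genes it held an internal start. These were Mest (chr6:30688001-30690000), a hydrolase-like protein, with the tile centre 15.5 kb downstream of the gene's first start, Grb10 (chr11:11926001-11928000), an adaptor that dampens insulin signalling, at 11.7 kb, and Inpp5f (chr7:135830001-135832000), a phosphoinositide phosphatase, at 76.2 kb. At Igf2r (chr17:12934001-12936000), the receptor that clears IGF2, the tile lay in an intron and held the start of the antisense RNA Airn. At Gnas (chr2:174120001-174122000), which encodes the stimulatory G protein alpha subunit, it held the start of the antisense RNA Nespas. The Peg3 tile (chr7:6680001-6682000) held no annotated start and lay in an intron, with its centre 2.13 kb from the start of this zinc finger gene.

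H3K9me3 was high at all 10 peak tiles and lower at all 10 upon Dnmt1 deletion. Each peak tile was picked as the highest of its window, which favours a high level. The share of all genes whose highest tile is as high was not taken, here or for the other genes listed below. In the Dicer KO the levels ran from 4.02 (Impact) to 7.60 (Igf2r) with a median of 6.84. In the Dicer KO/Dnmt1 cKO they ran from 2.73 (Plagl1) to 5.12 (Igf2r) with a median of 4.03, so every peak remained above 2 times the genome's mean. Summed over the 10 tiles, 878 reads were counted with Dnmt1 and 568 without, a log2 change of −0.69 (95% interval −0.84 to −0.53). The share of tiles lower in the Dicer KO/Dnmt1 cKO was 60.9% among the 34960 tiles of the genome at 2 or more times the mean over both genotypes. It was 75.5% among the 1938 other tiles whose level over both genotypes lay in the range of the 10 genes, from 3.62 to 6.36. A lower value by itself was therefore common at this height. The median change was −0.73 over the 10 genes and −0.21 over those 1938 tiles, of which 5.16% had a change at or below −0.73. Of the 104 such tiles that also held at least 51 CpGs, 71.2% were lower, with a median change of −0.17, and 9.62% had a change at or below −0.73. These shares are of single tiles, which vary more than a median of 10, so they do not measure how unusual the 10 genes are as a group.

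**Figure D1:**
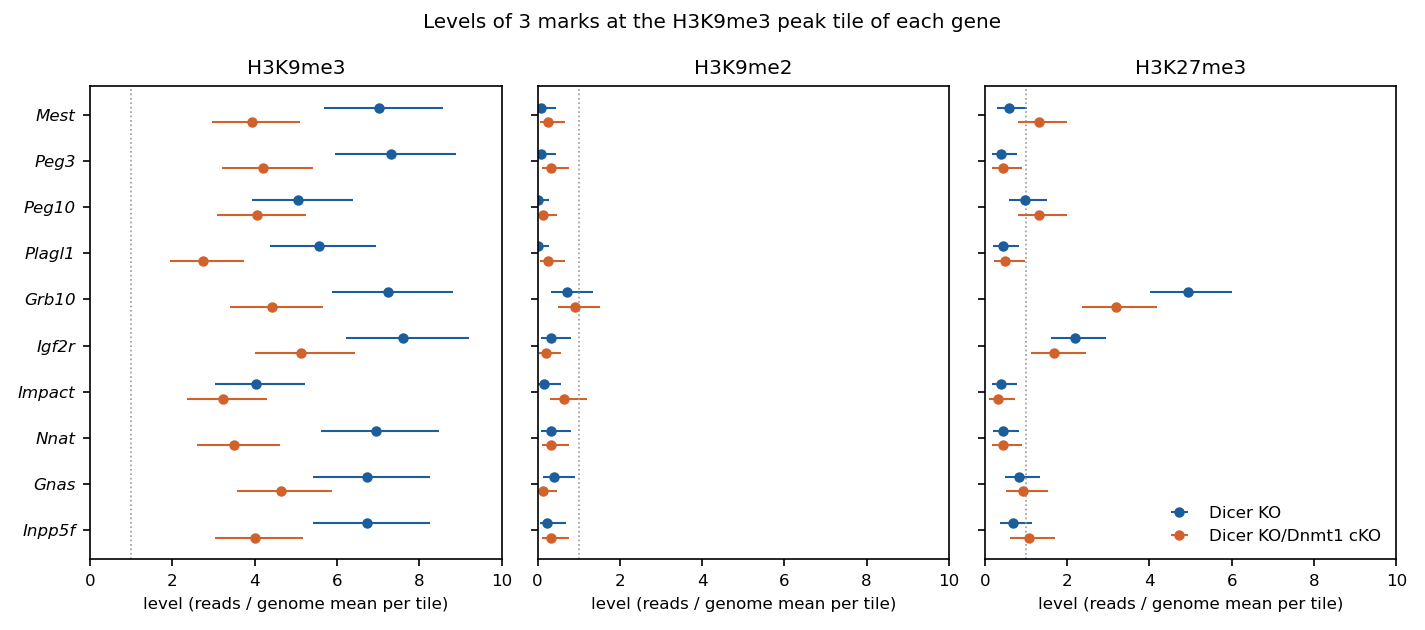
Level of each mark (reads divided by the genome's mean per tile) at the H3K9me3 peak tile of each gene in the Dicer KO (blue) and the Dicer KO/Dnmt1 cKO (orange). Points are single libraries, bars are exact 95% Poisson intervals for counting error, and the dotted line marks the genome's mean; H3K9me3 lies between 4.02 and 7.60 in the Dicer KO and between 2.73 and 5.12 in the Dicer KO/Dnmt1 cKO.

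Among single genes the largest differences were at Plagl1 and Nnat. The Plagl1 tile held 76 H3K9me3 reads in the Dicer KO and 39 upon Dnmt1 deletion, a change of −1.02 (−1.62 to −0.45). The Nnat tile held 95 and 50 reads, a change of −0.99 (−1.51 to −0.48). Plagl1 was the only gene at or past 2-fold, against 3.42% of all tiles that averaged 10 reads or more and 1.01% of tiles at 2 or more times the mean that were lower at least 2-fold. Mest had 96 and 56 reads (−0.84), Peg3 100 and 60 (−0.80) and Inpp5f 92 and 57 (−0.75). For these 3 genes the interval ended between −0.35 and −0.26, below 0. Grb10 had 99 and 63 reads (−0.71, −1.19 to −0.24), Igf2r 104 and 73 (−0.57, −1.02 to −0.13), and Gnas 92 and 66 (−0.54, −1.02 to −0.07). At Peg10, with 69 and 58 reads (−0.31, −0.84 to 0.21), and at Impact, with 55 and 46 reads (−0.32, −0.92 to 0.27), the difference was within counting error. The intervals of the genes at either end of this order, Plagl1 and Peg10, overlapped, so an order among the 10 was not detectable at this depth. With the tile chosen on the Dicer KO/Dnmt1 cKO alone, Plagl1 was at −0.41 (−1.05 to 0.21), Peg3 at −0.26 (−0.73 to 0.21) and Gnas at −0.23 (−0.70 to 0.24), all within counting error.

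**Figure D2:**
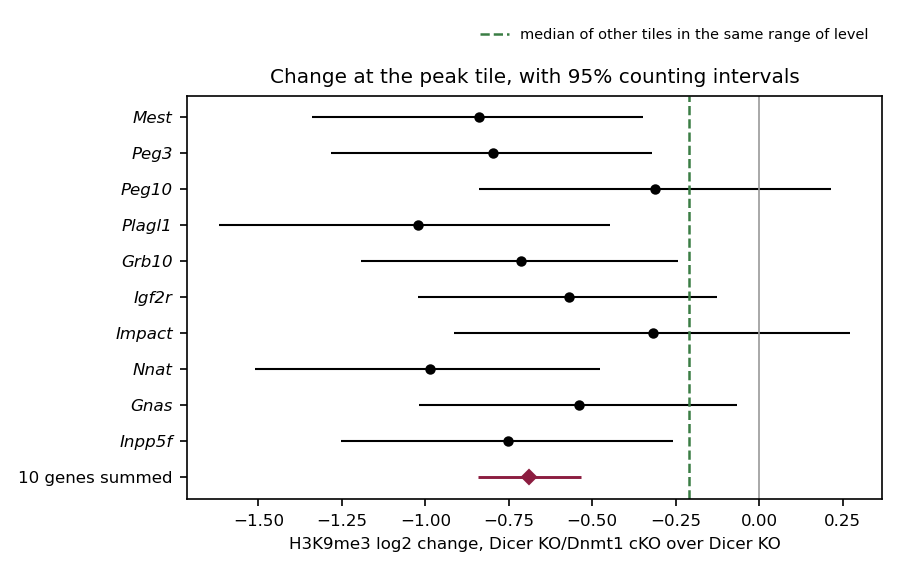
H3K9me3 log2 change at the peak tile of each gene (black) and summed over the 10 genes (red diamond), with exact binomial 95% intervals for counting error. The green line marks −0.21, the median of 1938 other tiles in the same range of level; all 10 points lie to its left, and the intervals of Peg10 and Impact cross 0.

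Width was taken as the run of adjoining tiles around the peak tile at 2 or more times the genome's mean. In the Dicer KO it was between 4 kb (Impact) and 14 kb (Gnas), with a median of 10 kb and 94 kb over the 10 genes. In the Dicer KO/Dnmt1 cKO it was between 4 kb (Peg10 and Impact) and 12 kb (Peg3), with a median of 6 kb and 66 kb in all. The run was narrower at 8 genes, equal at Peg3 and Impact and wider at none. Plagl1, Nnat and Inpp5f went from 10 to 6 kb, Mest and Grb10 from 10 to 8 kb, Igf2r from 8 to 6 kb and Peg10 from 6 to 4 kb. The largest difference was at Gnas, from 14 to 6 kb, where 3 tiles before the summit and 1 after it were below the threshold in the Dicer KO/Dnmt1 cKO. A fixed threshold makes a lower peak narrower. When width was taken at 50% or more of the peak tile's own level in each library, the total was 48 kb in the Dicer KO and 76 kb upon Dnmt1 deletion, and 7 genes were wider and 0 narrower. The shares of the genome's runs that were narrower or wider were not taken, so neither count of genes has a background. For comparison, 1548 Dicer KO runs of the genome held a tile that reached 3.62 over both genotypes, the lowest such level among these peaks, and their median width was 6 kb, with 31.3% wider than 6 kb. Of the 10 genes, 8 had a Dicer KO run wider than 6 kb. The 1548 runs had no upper limit of level and were not matched to the 10 genes in height. The comparison thus does not show that these peaks are wide for their height.

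**Figure D3:**
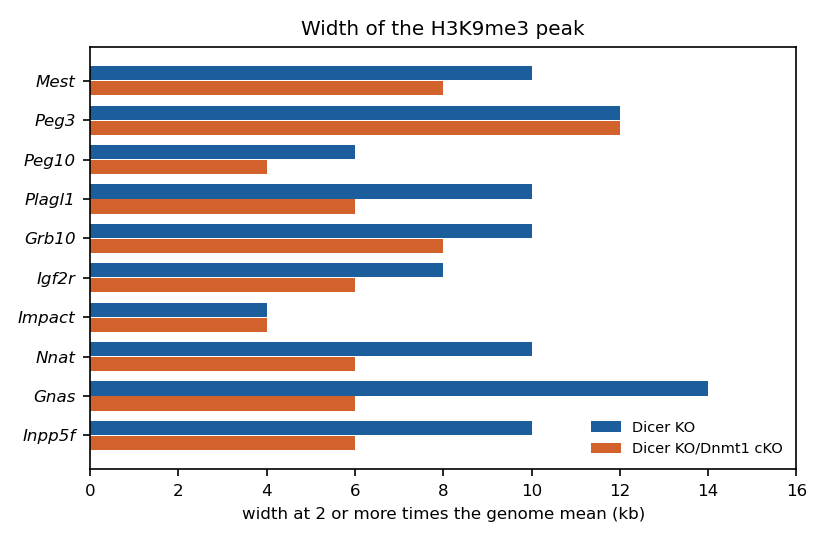
Width in kb of the run of tiles at 2 or more times the genome's mean around each H3K9me3 peak in the Dicer KO (blue) and the Dicer KO/Dnmt1 cKO (orange). Bars start at 0 and each is 1 library; 8 of 10 genes have the shorter bar in the Dicer KO/Dnmt1 cKO.

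Summed over the 10 genes, the log2 change in H3K9me3 was largest at the peak tile, at −0.69. It was larger in the pair of tiles 4 kb away than in the pair directly next to the peak tile, with overlapping intervals. At the peak tile the mean level was 6.42 in the Dicer KO and 3.98 upon Dnmt1 deletion. In the tiles directly next to it on both sides, the levels were 3.84 and 2.91 and the change −0.40 (−0.53 to −0.27). In the next pair, 4 kb from the peak tile, they were 2.46 and 1.75 and the change −0.49 (−0.66 to −0.32). From 6 to 20 kb away the levels were 1.12 in both genotypes and the change was 0.00 (−0.08 to 0.09). This sum joins single distances of either sign, of which 20 kb before the peak tile (227 and 192 reads, −0.30, −0.59 to −0.02) and 18 kb after it (94 and 131 reads, 0.42, 0.03 to 0.82) had intervals that left out 0. Over the 249 tiles of the windows outside the runs, the H3K9me3 change was −0.01 (−0.07 to 0.06). Nnat differed, since its 2 tiles outside the run held 28 and 15 reads (−0.96, −1.97 to −0.01). Neighbouring tiles can share DNA fragments and are not independent.

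**Figure D4:**
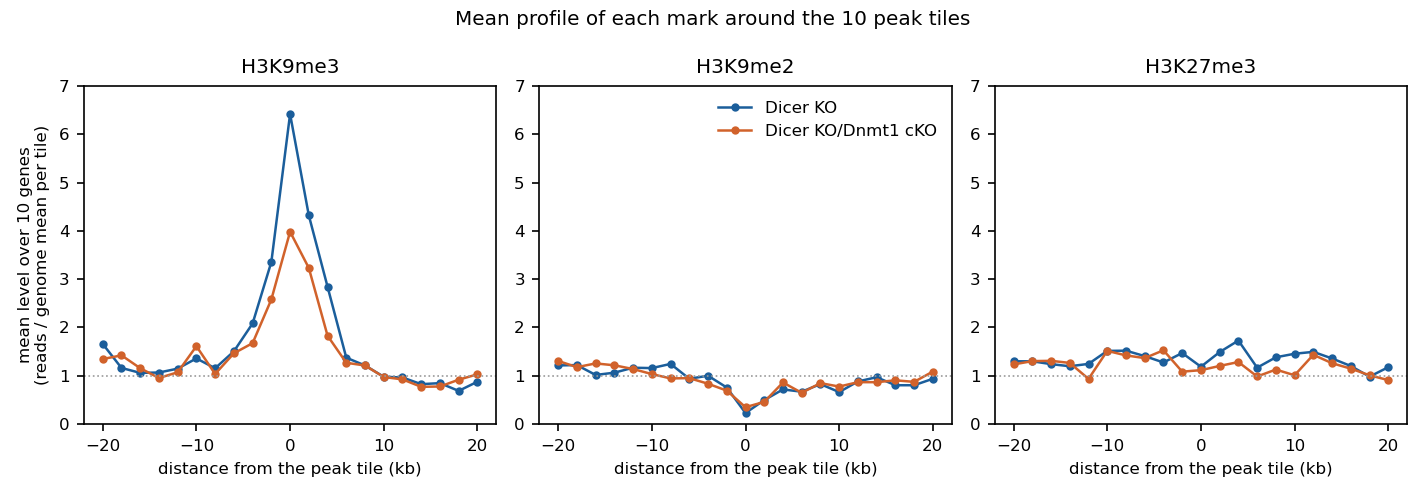
Mean level over the 10 genes (reads divided by the genome's mean per tile) of each mark against distance from the peak tile in kb, along the genome's coordinates, in the Dicer KO (blue) and the Dicer KO/Dnmt1 cKO (orange). H3K9me3 at 0 kb is 6.42 and 3.98, and H3K9me2 has its lowest mean, 0.229 and 0.350, at the same tile.

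Summed, weaker H3K9me3 enrichment in the same windows did not share the difference. Outside the peak runs, 10 tiles in the windows of 4 genes were at 2 or more times the mean over both genotypes together. They held 317 reads in the Dicer KO and 324 after Dnmt1 loss, a change of −0.03 (−0.26 to 0.20). Single tiles lay on both sides of this value. A pair of tiles inside Peg3 (chr7:6660001-6664000) had 61 and 72 reads, whereas 1 tile of Inpp5f (chr7:135764001-135766000) had 37 and 25 and 1 of Grb10 (chr11:11906001-11908000) had 34 and 23. These tiles were also lower than the peaks, at a mean level of 2.32 in the Dicer KO.

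H3K9me2 was low at most of the peak tiles. The peak tiles held between 0 (Peg10 and Plagl1) and 9 reads (Grb10) in the Dicer KO and between 2 and 14 upon Dnmt1 deletion, and no tile reached the genome's mean in either genotype. Grb10 came closest to it, at 0.710 in the Dicer KO and 0.906 upon Dnmt1 deletion. The exact 95% interval of a count of 0 ran up to a level of 0.291 in the Dicer KO library. The mean level was 0.229 in the Dicer KO and 0.350 upon Dnmt1 deletion, and it was 0.974 and 0.994 from 6 to 20 kb away. Tiles as rich in CpG elsewhere in the genome were also low, at 0.337 and 0.384 over 26796 tiles. The 104 other tiles as rich in both CpG and H3K9me3 were higher than both, at 0.744 and 0.713.

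From the Dicer KO to the Dicer KO/Dnmt1 cKO the 10 peak tiles went from 29 to 54 H3K9me2 reads, a change of 0.61 (−0.06 to 1.32) that was within counting error. With 1 tile added on either side it was 0.02 (−0.26 to 0.30). The median of the genes was 1.08, with 5 genes higher and 1 lower at least 2-fold, at counts too low to tell these from counting error. Peg10 (0 and 2 reads) and Plagl1 (0 and 4 reads) are among the 5 and have no finite change. Of the genome's tiles that averaged 10 reads or more, 7.03% were past 2-fold in either direction. Most of these peak tiles held fewer reads than that, and no share was taken at such counts. The count was higher at 8 genes after depth scaling and lower at 2 (Igf2r and Gnas), and no gene's own interval left out 0. Impact came nearest, with 2 reads in the Dicer KO and 10 upon Dnmt1 deletion (2.04, −0.19 to 5.27). Among the 24737 other tiles with at least 51 CpGs and at least 1 read, 58.3% were higher. Over the window tiles outside the runs the H3K9me2 change was −0.01 (−0.07 to 0.06).

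H3K27me3 was uneven among the peak tiles. At 8 peak tiles its level in the Dicer KO was below the genome's mean, with 8 reads each at Peg3 and Impact as the lowest counts. At Grb10 it was 4.94 and at Igf2r 2.20. Upon Dnmt1 deletion Grb10 alone was at 2 or more times the mean, at 3.18, Igf2r was at 1.68, and 5 genes were below the mean. Summed over the 10 peak tiles, 243 and 179 reads gave a change of −0.09 (−0.38 to 0.20), but this sum joins values of opposite sign, and the median of the genes was 0.17. With the adjoining tiles added the change was −0.28 (−0.44 to −0.13), and at the tiles with most hexamers it was −0.38 (−0.61 to −0.16). With the tile chosen on the Dicer KO/Dnmt1 cKO alone it was −0.25, with an interval that ended just below 0. The H3K27me3 value thus depended on the choice of tile. The 8 low tiles had 97 and 101 reads (0.41, −0.01 to 0.83). Grb10 and Igf2r together had 146 and 78 reads (−0.55, −0.97 to −0.15). This split was made on the Dicer KO library, a choice that by itself favours a positive value for the low tiles and a negative value for the high ones. Of single genes only 2 differed beyond counting error: Grb10, with 101 and 51 reads (−0.63, −1.15 to −0.13), and Mest, with 12 and 21 reads (1.16, 0.07 to 2.32). The interval left out 0 at 5.98% of the 934281 tiles of the genome that averaged 10 reads or more. Mest was the 1 gene past 2-fold upward, against 3.09% of tiles that averaged 10 reads or more, and 0 genes were lower at least 2-fold, against 2.90% of tiles. The tile directly before the Mest peak tile went the other way, with 46 and 18 reads. Over the whole Mest run the H3K27me3 change was 0.06.

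Tiles high in both marks occurred in the runs of some genes. In the Dicer KO, 21 of the 296 tiles were at 2 or more times the mean in both H3K9me3 and H3K27me3, against 0.491% of all tiles, and 14 of them lay in the peak runs of 5 genes: Mest, Grb10, Igf2r, Gnas and Inpp5f. Upon Dnmt1 deletion it was 14 of the 296 tiles, against 0.578% of all tiles. A choice of tiles on the Dicer KO alone favours lower values in the other library, so the marks were also summed over the 9 tiles of the runs that reached this level in the mean of both genotypes. Over these 9 tiles H3K9me3 went from 523 to 424 reads (−0.36, −0.55 to −0.18) and H3K27me3 from 758 to 457 (−0.38, −0.55 to −0.21). These sums rest on 4 tiles of Grb10 and 2 of Gnas, whose H3K27me3 level was lower upon Dnmt1 deletion in each. The 2 Mest tiles went from 2.44 to 2.43 and from 2.88 to 3.31 in H3K27me3, and the Inpp5f tile from 2.10 to 2.62. Next to the Mest peak tile, a run tile outside the 9 was lower, at 2.25 in the Dicer KO and 1.12 upon Dnmt1 deletion. The Grb10 peak lay inside an H3K27me3 domain of 66 kb that spanned 48 kb upon Dnmt1 deletion, where it ended at a single tile with 32 reads, less than 1 read under the threshold, and the 5 tiles beyond were above it again. The tile with most H3K27me3 over both genotypes was 12 kb from the H3K9me3 peak and held the first gene start, with 167 and 102 reads (−0.36, −0.73 to 0.00). In the Dicer KO alone the highest tile was 10 kb away, with 179 reads. At Gnas H3K27me3 differed between nearby tiles. The Gnas peak tile had 17 and 15 H3K27me3 reads, whereas the tile 4 kb on, still with 82 and 73 H3K9me3 reads, had 127 and 61. The tile between them held both marks, with 78 and 59 H3K9me3 reads and 88 and 46 H3K27me3 reads. At Mest the order was the reverse along the genome, since H3K27me3 was at levels of 2.88 and 3.31 in the tile 4 kb before the peak and 0.586 and 1.31 at the peak. At Igf2r the main H3K27me3 peak was 28 kb away at the gene's own promoter, with 93 and 45 reads (−0.70, −1.24 to −0.17).

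**Figure D5:**
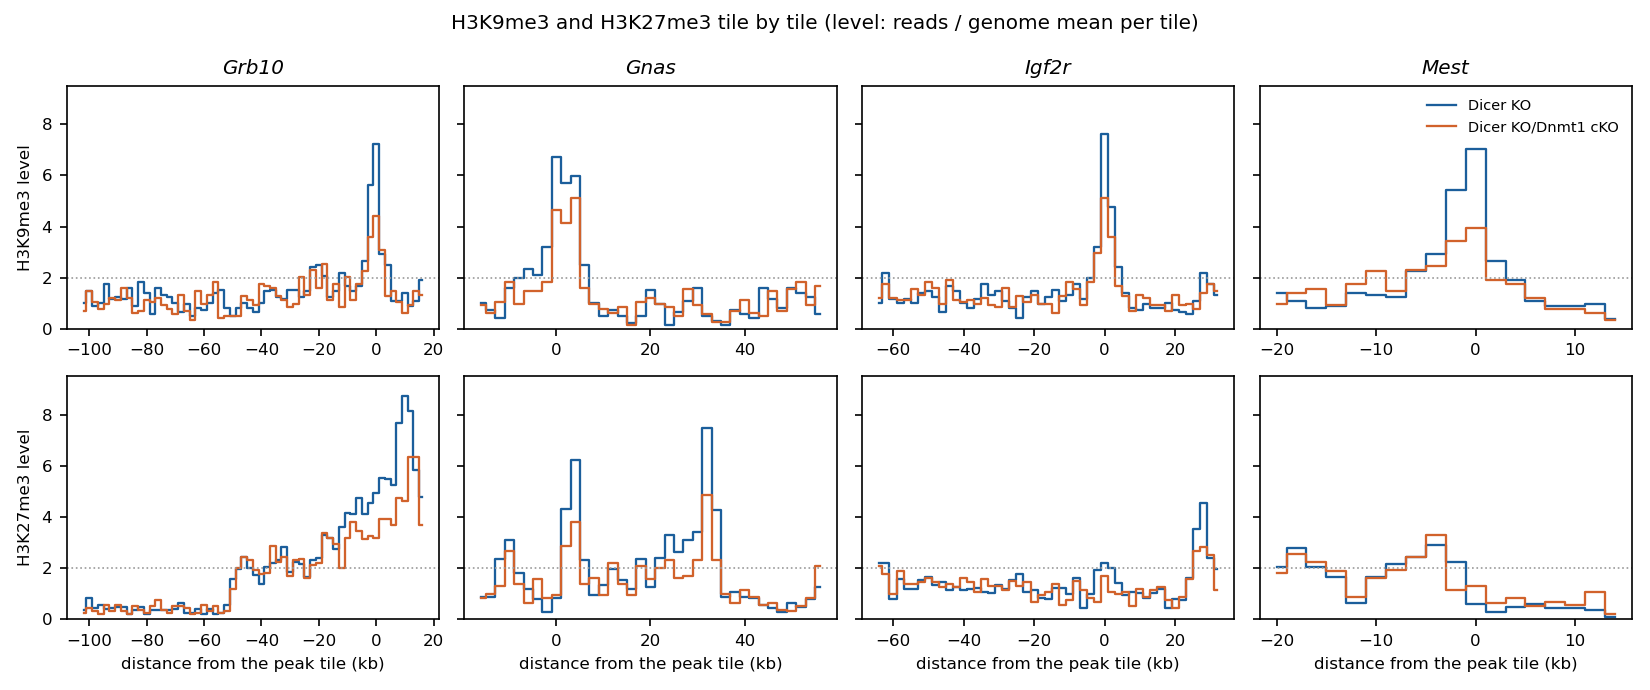
Level (reads divided by the genome's mean per tile) of H3K9me3 (top) and H3K27me3 (bottom) in each tile of 4 windows against distance from the H3K9me3 peak tile in kb, along the genome's coordinates, in the Dicer KO (blue) and the Dicer KO/Dnmt1 cKO (orange). The dotted line marks 2 times the genome's mean; the H3K9me3 peaks stand at 0 kb, while H3K27me3 over both genotypes is highest 12, 32 and 28 kb away at Grb10, Gnas and Igf2r, and in the Dicer KO alone 10 kb away at Grb10.

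Lower H3K27me3 at its own high tiles was not limited to these genes. Among the 108212 tiles of the genome at 2 or more times the mean in H3K27me3, 58.6% were lower upon Dnmt1 deletion. The median change was −0.08 over these, −0.23 over the 19726 tiles at 3 or more and −0.38 over the 6095 tiles at 4 or more. H3K27me3 at the start sites of 10 genes of differentiated lineages and fibroblasts, all at 2 or more times the mean in the Dicer KO, was lower at 9 of them, and their median level went from 4.98 to 3.96. The part of this genome-wide difference in the values at Grb10, Gnas and Igf2r was not tested. Outside the runs the H3K27me3 change over the windows was −0.11 (−0.17 to −0.06), with 55 tiles at Grb10 at −0.21 (−0.30 to −0.11) and 30 tiles at Gnas at −0.31 (−0.44 to −0.17).

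Across the 296 tiles the marks were only loosely related. The Spearman correlation between H3K9me3 and H3K9me2 was 0.02 in the Dicer KO and 0.04 upon Dnmt1 deletion. Between H3K9me3 and H3K27me3 it was 0.13 and 0.22, and between H3K9me2 and H3K27me3 0.32 and 0.29. These tiles share base composition and neighbouring fragments and are not replicates.

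Of 12 other imprinted genes with germline methylation, 10 were in the annotation, and 6 had a peak tile at 2 or more times the mean over both genotypes, with a median change of −0.55 and 5 of 6 lower, where 60.9% of all tiles at that level were lower. Over all 10 annotated genes, 7 were lower and the median was −0.17. Snrpn, a splicing factor gene of the Prader-Willi region, had 84 and 50 reads (−0.81, −1.34 to −0.29). Zrsr1 had 74 and 47 (−0.72, −1.27 to −0.17), and H19, a noncoding RNA gene whose imprint comes from sperm, had 82 and 53 (−0.69, −1.22 to −0.17). Nap1l5, with 107 and 92 reads, and Meg3, with 65 and 51, differed within counting error. Rasgrf1 was higher, with 37 and 43 reads (0.16, −0.51 to 0.83). Zdbf2, H13, Mcts2 and Slc38a4 had no tile at 2 times the mean. Each window was the gene's bounds plus 5 kb, and whether it held the germline methylated region was not checked.

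Of 18 neighbours in the imprinted domains of the 10 genes, 15 were in the annotation. The highest H3K9me3 tile of Sgce, Airn, Blcap, Nespas and Mcmbp lay in the peak of Peg10, Igf2r, Nnat, Gnas or Inpp5f. The other 10 genes had tiles of their own, 6 of them at 2 or more times the mean, with a median change of −0.24. Ppp1r9a, near Peg10, had the highest, with 110 and 79 reads (−0.54, −0.97 to −0.11). Ddc, next to Grb10, had 64 and 51, Zim1 49 and 49, Slc22a2 38 and 34, and Slc22a3 32 and 28. Copg2, next to Mest, had 24 and 42 (0.75, −0.01 to 1.53). All 16 genes for factors tied to DNA methylation or to these histone marks, such as Zfp57, Trim28, Setdb1, Dnmt3a and Ezh2, were in the annotation, and 0 of them had a tile at 2 or more times the mean over both genotypes.

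The 10 genes, the other imprinted genes and the neighbours listed above were left out before the genes with most similar values were sought. Among 589 peak tiles of other genes with a Dicer KO level of at least 4.02, the Euclidean distance over the 6 log2 levels (with a pseudocount of 1 read) to the median of the 10 genes was smallest for Gm13034 with Gm13036 (0.367), followed by Flt1 (0.674), Cntn5 (0.736), SNORA55 (0.738) and Gm15377 (0.738). H3K9me3 at Gm13034 went from 91 to 65 reads (−0.55, −1.03 to −0.07) and at Gm15377 from 75 to 47 (−0.73, −1.29 to −0.19). It went from 93 to 79 reads at Flt1, from 68 to 57 at Cntn5 and from 63 to 45 at SNORA55, all within counting error. The distances of the 10 genes themselves ran from 0.281 to 3.91 with a median of 1.76, and 112 of the 589 tiles were closer than that median. The 6 levels alone thus did not set the 10 genes apart from these 589 tiles, all of which had been picked for high H3K9me3.

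The marks could check the labels only in part. H3K27me3 at the start sites of 7 ESC genes, Pou5f1, Nanog, Sox2, Klf4, Esrrb, Zfp42 and Tbx3, had a median level of 0.701 in the Dicer KO and 0.520 upon Dnmt1 deletion. Esrrb was the 1 gene of the 7 at 2 or more times the mean. Over Dnmt1 (chr9:20711650-20757317), 0 of 24 tiles were empty in all 3 marks in the Dicer KO/Dnmt1 cKO, and over Dicer1 (chr12:105925952-105990162) 0 of 34. The 3 marks thus leave the deletion of either gene unchecked.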

How the data were processed

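Trimming was done by the authors in Trim Galore and alignment to NCBIM37 in Bowtie2, with a mapping quality of at least 20. The deposited values are log2 ratios of reads observed to reads expected in each tile. Their methods speak of 1 kb tiles, whereas the deposited tiles span 2 kb. Removal of duplicate reads is not stated for ChIP-seq. Of 25 columns of values, 6 matched the labels and 19 were not used. The lengths of all 22 chromosomes equalled the reference.

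The antilogs of a library were whole multiples of its smallest step (empty tiles stood at 0.9 of a step), which gave back the read counts. At most 1 value per library lay over 0.1 reads from a whole number. Values were computed in Python 3.11.15 with numpy 2.4.6, pandas 2.3.3 and scipy 1.17.1, plots were drawn with matplotlib 3.10.9, and the functions were tested on simulated data. Gene bounds came from the GENCODE annotation of NCBIM37.

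The members and lists were chosen with earlier results of these data known. Named were the 10 genes, further H3K9me3 runs in their windows, list genes with a tile at 2 or more times the mean, and the 5 genes with most similar levels. Kcnq1ot1, Peg13, Zim2, Zim3 and Hymai were not found by name in the annotation. Alternatives were other scalings (median ratio, and a trimmed mean with 30% of ratios and 5% of levels trimmed), choices of tile, windows of 0 or 10 kb, thresholds of width, and minimum reads. The tiles compared by level and CpG, the tiles chosen on both genotypes together, the genome's shares of intervals and of tiles rich in both marks, and scaling to tiles rich in H3K9me3, were chosen after seeing the data.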

Additional observations from a re-analysis of the deposited data

How the results depend on the processing

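The H3K9me3 change at the peak tiles stayed negative under all 10 alternatives, from −0.73 to −0.49, and all 10 genes were lower under each of the 9 that keep single genes. This was partly given by construction, since 3 of these 9 picked the same 10 tiles with the same scaling and 3 more only rescaled all genes alike. Adding 1 tile on either side gave an H3K9me3 change of −0.53, and scaling to the median of tiles rich in H3K9me3, chosen after seeing the data, gave −0.49, with the intervals of Igf2r and Gnas then also including 0. The number of genes lower at least 2-fold was 1 as reported, 2 with the median scaling, 3 at the tiles with most hexamers and 0 with 3 tiles per gene. It was also 0 with scaling to tiles rich in H3K9me3, where Plagl1 was at −0.83 (−1.42 to −0.25). The tile chosen on the Dicer KO/Dnmt1 cKO alone gave 0 too, with Peg3 at −0.26 (−0.73 to 0.21), Plagl1 at −0.41 (−1.05 to 0.21) and Gnas at −0.23 (−0.70 to 0.24). At the tiles with most hexamers the intervals of Peg3, Grb10 and Gnas also included 0. For H3K27me3 the median of the genes was 0.17 where the summed reads gave −0.09 and, at the tiles with most hexamers, −0.38 (−0.61 to −0.16); the cause was not tested. It was −0.28 (−0.44 to −0.13) with 1 tile added on either side and −0.25, with an interval from −0.49 to just below 0, with the tile chosen on the Dicer KO/Dnmt1 cKO alone. The H3K9me2 change of 0.61 was 0.02 (−0.26 to 0.30) with 1 tile added on either side and 1.08 as the median of the genes. Widths with and without Dnmt1 summed to 126 and 96 kb at 1.5 times the mean, with 6 genes narrower and 4 equal. At 3 times the mean they summed to 56 and 38 kb, with 5 genes narrower, 4 equal and 1 wider. At that threshold 1 gene had no run in the Dicer KO/Dnmt1 cKO. The widths summed to 48 and 76 kb at 50% of each peak's own level, which turned the direction. Among tiles that averaged 10 reads or more, the share past 2-fold in either direction was 7.48% for H3K9me3, 7.03% for H3K9me2 and 5.99% for H3K27me3. With a mean of at least 30 reads it was 1.23%, 1.21% and 1.35%, and with no minimum and a pseudocount of 1 read 8.65%, 9.16% and 9.40%. No paired analysis was possible because each group holds 1 library. Depth limits single tiles most, above all for H3K9me2, where the peak tiles held at most 14 reads.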

Other observations

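The tile with most TGCCGC hexamers was not the H3K9me3 peak tile at 4 genes. At Peg3, Nnat and Gnas it lay 2, 2 and 4 kb away within the same run, and its H3K9me3 reads with and without Dnmt1 were 85 and 74 at Peg3, 82 and 40 at Nnat, and 82 and 73 at Gnas. At Grb10 it lay 10 kb away, next to the tile with the first gene start, in a tile with 215 CpGs and 5 hexamers, where H3K9me3 was low at 19 and 9 reads and H3K27me3 high at 179 and 74. At Peg3 this tile had 8 and 19 H3K27me3 reads, a log2 change of 1.60 (lower bound of the 95% counting interval 0.34), while the peak tile next to it had 8 and 7. The run tile on the other side of the peak (chr7:6678001-6680000) went the other way, with 21 and 4. Over the whole Peg3 run the H3K27me3 change was −0.02. These tiles are single libraries with few reads.

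Among the list genes, the Zrsr1 peak tile had 1 H3K27me3 read with Dnmt1 and 7 without (3.16, 0.20 to 8.65), with H3K9me3 lower at the same tile. This value was picked from 3 marks at many list genes. Other intervals there also left out 0, such as H3K9me2 at H13 with 7 and 24 reads (1.49, 0.23 to 2.95) and H3K27me3 at Dppa3 with 127 and 56 (−0.83, −1.31 to −0.36). The H19 peak tile was rich in both marks, with 62 and 34 H3K27me3 reads (−0.51, −1.16 to 0.11). Nanog, chosen here as an ESC marker, had 101 and 50 H3K9me3 reads over the 3 tiles around its start site (−1.07, −1.59 to −0.57), and this value was singled out after it was seen.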
